A study of Homo sapiens with 12 samples.

Results

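The 10 genes described here encode the transcription factors that drive epithelial-to-mesenchymal transition (EMT) and the factors that oppose it. SNAI1, SNAI2, TWIST1, TWIST2, ZEB1, ZEB2 and PRRX1 are the drivers, and OVOL1, OVOL2 and GRHL2 are the epithelial opponents. They were chosen by name, as the entries with these symbols among the 29744 entries of the RNA-seq count table, and all 10 were found.

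EMT is the programme by which epithelial cells loosen their junctions and take on mesenchymal traits. The drivers are DNA-binding proteins that repress epithelial genes such as CDH1, mostly through E-box sequences, while OVOL and grainyhead-like factors hold the epithelial state and repress the drivers, ZEB1 in particular. In breast cancer the drivers are known for partial states in which epithelial and mesenchymal genes are transcribed together, and in the normal mammary gland SNAI2 is a factor of basal cells.

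RNA-seq was performed in 4 groups of 3 libraries each of MB157, an established triple-negative breast cancer (TNBC) cell line, and of MB157R, its derivative that grew out over 25 weeks in 1 µM of a γ-secretase inhibitor (GSI), which blocks the release of the NOTCH1 intracellular domain (N1-ICD). The groups were MB157R with an inducible N1-ICD transgene (MB157R iN1-ICD), MB157R with the empty inducible vector (MB157R iEV), MB157 with an inducible SOX2 transgene (MB157 iSOX2) and MB157 with the empty vector (MB157 iEV). All 4 groups, controls included, received 1 µg/ml doxycycline for 72 h. The labels list the libraries of a group as separate samples, so p-values cover only the variation among these libraries. MB157R is 1 resistant line, so the difference between MB157R and MB157 is a difference between 2 lines, and whether MB157R cells were in GSI at harvest is not given in the sources used here. MB157 itself carries a NOTCH1 gene that yields a ligand-independent active form, so N1-ICD is not foreign to these cells. Libraries held between 32773820 and 49055208 estimated counts (median 42836269). Levels are given as CPM, counts scaled to library size, after TMM scaling over all 12 libraries, folds are ratios of group means on that scale, and log2 fold changes come from edgeR's quasi-likelihood test with Benjamini-Hochberg adjustment over all genes tested. The 6-library tests were scaled on their own libraries, so their fold changes can differ slightly from the ratios of CPM. The 6-library tests compare the genes that the authors kept for each comparison, and a fit over all 12 libraries takes genes with a mean of at least 5 counts, which includes the 10 members.

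The induced genes followed their labels. SOX2 stood at 284, 328 and 292 CPM in MB157 iSOX2, against 6.46, 7.58 and 6.87 CPM in MB157 iEV. NOTCH1 stood at 2662, 1765 and 2611 CPM in MB157R iN1-ICD, against 105, 87.6 and 93.8 CPM in MB157R iEV. Both genes' counts include reads from their transgenes. Of 10 breast epithelial markers, all 10 were in each comparison's tested genes. ESR1 and PGR, the hormone receptors that TNBC lacks, averaged at most 5.06 CPM in any group, whereas ERBB2 averaged 173 CPM in MB157R iEV and 125 CPM in MB157 iEV. The leukocyte genes CD3E and MS4A1 and the melanocyte and nerve genes MLANA, TYR and SOX10 had 0 counts in all 12 libraries. The other members of these lists were not at 0. CD14, a monocyte receptor, averaged 2.83 CPM in MB157R iN1-ICD, 0.349 CPM in MB157R iEV, 6.83 CPM in MB157 iSOX2 and 36.7 CPM in MB157 iEV and passed the test in all 3 comparisons, and CD68, a lysosomal protein of macrophages, averaged 11.8, 4.38, 1.05 and 2.22 CPM in the same groups. PMEL averaged at most 2.65 CPM and PTPRC, the pan-leukocyte gene, at most 0.211 CPM in any group. The 5 leukocyte markers summed to at most 15.5 CPM in the libraries of MB157R iN1-ICD, MB157R iEV and MB157 iSOX2 and to between 37.5 and 40.8 CPM in MB157 iEV, and their part in the results was not tested.

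RefSeq (GRCh38.p14) gave promoter windows for 4 of the 10 members, PRRX1, ZEB2, TWIST2 and ZEB1, the last with 7 alternative starts. The 250 bases before the start are shown for ZEB2 and TWIST2, because these genes were on in 1 line and at or near 0 in the other, and for the ZEB1 start with the most matches to the motifs searched. Each is printed 5′ to 3′ along the gene's strand. The windows lie at chr2:144520120-144520369 on the minus strand for ZEB2, at chr2:238847835-238848084 on the plus strand for TWIST2 and at chr10:31318966-31319215 on the plus strand for ZEB1. Both the ZEB2 and the ZEB1 window lie inside the annotated span of the gene, and which starts were used in these cells was not tested. Capitals mark matches on either strand to CAGGTG (the E-box of SNAI and ZEB factors), TGGGAA (the core bound by RBPJ, the DNA-binding partner of N1-ICD), AACAAT (a SOX core), CCGTTA (an OVOL site) or AACCGGTT (a GRHL site), none of which contains another.
ZEB2: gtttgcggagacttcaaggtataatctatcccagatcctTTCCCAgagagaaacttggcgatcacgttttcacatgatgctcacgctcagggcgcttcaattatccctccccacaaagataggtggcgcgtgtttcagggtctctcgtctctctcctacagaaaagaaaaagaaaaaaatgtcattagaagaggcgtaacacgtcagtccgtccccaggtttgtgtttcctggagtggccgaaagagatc
TWIST2: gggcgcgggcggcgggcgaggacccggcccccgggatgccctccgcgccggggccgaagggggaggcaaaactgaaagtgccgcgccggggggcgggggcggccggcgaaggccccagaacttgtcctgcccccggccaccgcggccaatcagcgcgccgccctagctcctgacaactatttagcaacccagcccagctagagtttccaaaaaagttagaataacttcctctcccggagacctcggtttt
ZEB1: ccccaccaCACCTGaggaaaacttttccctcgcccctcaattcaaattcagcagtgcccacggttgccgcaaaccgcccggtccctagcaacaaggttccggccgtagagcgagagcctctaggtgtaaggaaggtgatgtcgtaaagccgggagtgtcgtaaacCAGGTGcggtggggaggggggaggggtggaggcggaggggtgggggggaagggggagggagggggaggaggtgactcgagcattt
The ZEB2 window held 1 match, to TGGGAA read from the other strand, which began 211 bases before the start. TGGGAA occurred in 20.8% of all 35116 promoter windows of this length. The ZEB1 window held 2 matches to CAGGTG, 242 and 85 bases before the start, a motif found in 17.5% of all windows. Because this window was chosen for its matches, the share is no measure of it. Of the 10 member windows, 2 held CAGGTG, each at a ZEB1 start. A window at another ZEB1 start held CCGTTA, which occurred in 2.45% of windows. The TWIST2 and PRRX1 windows held none of the motifs, which occur in 8.98% of windows for AACAAT and in 0.117% for AACCGGTT. The TWIST2 window held 26 CpG dinucleotides, against a median of 11 over all windows. These matches are a description of the letters, since binding and methylation were not measured in these libraries.

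The drivers moved in both directions between the lines. SNAI2, TWIST1, ZEB1 and ZEB2 were higher in MB157R iEV than in MB157 iEV, while SNAI1, TWIST2 and PRRX1 were lower. In the authors' filtered genes 7 of the 10 members were tested in this comparison, of which 2 were higher, 4 were lower, while 1 did not pass, where 90.2% of all 11435 genes tested passed (45.0% higher and 45.3% lower), and 90.4% had libraries that did not overlap between the groups. In the 12-library fit 4 of the 10 were higher, 5 were lower, while 1 did not pass, where 86.0% of 17102 genes passed, so a passed test alone does not set the members apart and their sizes are what is described. TWIST2 was tested only through its MB157 counts and ZEB2 only through its MB157R counts. The MB157R iEV libraries here also serve as the controls of N1-ICD, and the MB157 iEV libraries as the controls of SOX2, so values of the 3 comparisons are given side by side.

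**Figure D1:**
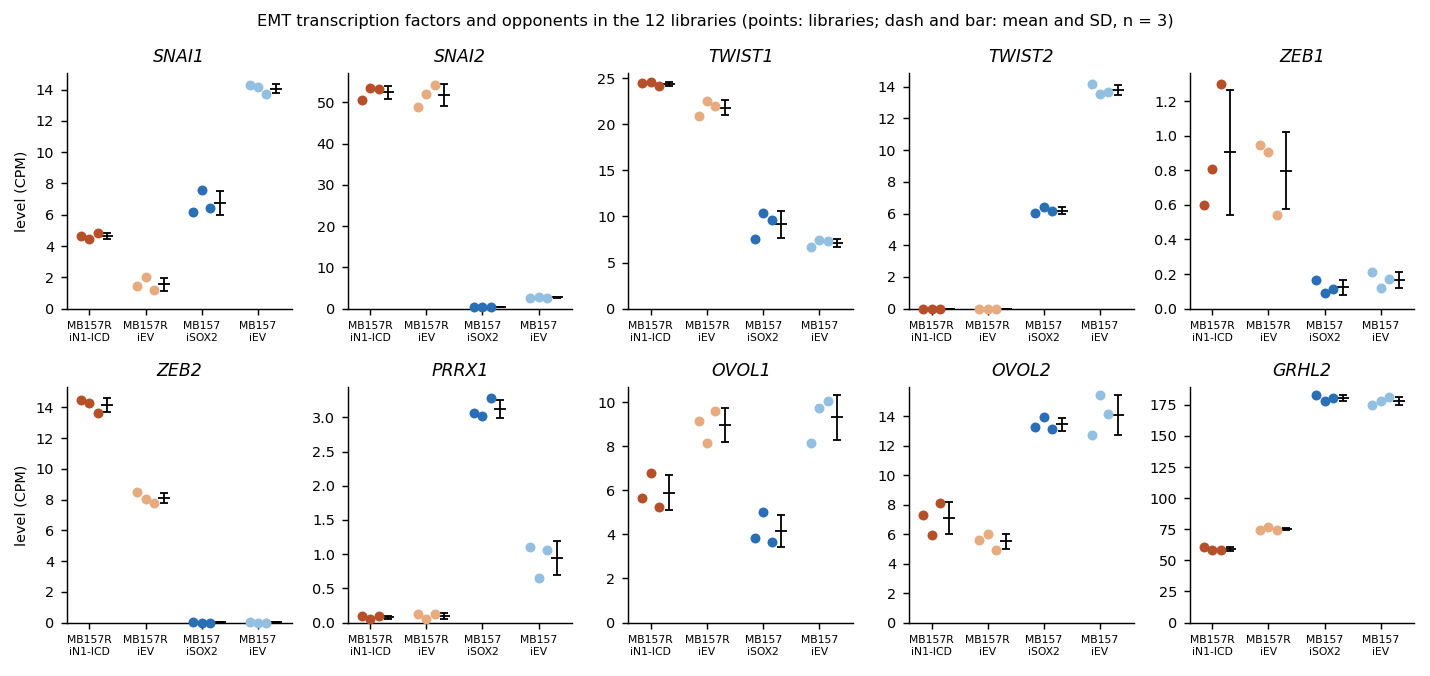
Levels of the 10 genes in CPM (vertical axes from 0, scaled per gene) in the 3 libraries of each group, with the mean and SD beside the points. SNAI2 stands near 52 CPM in both MB157R groups and under 3 CPM in both MB157 groups, while TWIST2 has 0 counts in all MB157R libraries and 13.8 CPM on average in MB157 iEV.

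SNAI1 and SNAI2, the zinc finger repressors SNAIL and SLUG, took opposite places in the lines. SNAI1 (chromosome 20, 49982980 to 49988886 of hg38, 3 exons in its canonical transcript) stood at 4.61, 4.46 and 4.82 CPM in MB157R iN1-ICD and at 1.44, 2.03 and 1.21 CPM in MB157R iEV. It stood at 6.17, 7.61 and 6.45 CPM in MB157 iSOX2 and at 14.3, 14.2 and 13.7 CPM in MB157 iEV. The 4 groups did not overlap in any pair, and SNAI1 was highest in MB157 iEV and lowest in MB157R iEV. It was 9.01-fold lower in MB157R iEV than in MB157 iEV, a log2 fold change of -3.25 (SE 0.14, adjusted p = 1.05e-10, edgeR). SOX2 induction lowered it 2.09-fold (log2 -1.05, SE 0.09, adjusted p = 1.63e-08, edgeR). N1-ICD induction raised it 2.97-fold (log2 1.62, SE 0.18, adjusted p = 2.65e-05, edgeR), to a level that was still 3.04-fold below MB157 iEV. Every neighbour in the order from MB157 iEV over MB157 iSOX2 and MB157R iN1-ICD to MB157R iEV differed in the 12-library fit, the closest pair being MB157R iN1-ICD and MB157 iSOX2 (log2 -0.54, SE 0.13, adjusted p = 8.94e-04, edgeR), a contrast in which 87.0% of all genes passed.

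SNAI2 lies on chromosome 8 (48917598 to 48921740, minus strand, 3 exons). Its libraries held 50.7, 53.5 and 53.2 CPM in MB157R iN1-ICD and 48.9, 52.1 and 54.2 CPM in MB157R iEV, which overlapped. They held 0.406, 0.395 and 0.355 CPM in MB157 iSOX2 and 2.61, 2.92 and 2.68 CPM in MB157 iEV, which did not overlap. SLUG mRNA was therefore abundant in MB157R whatever the transgene, and the small amount in MB157 was lower still with SOX2. It was 18.9-fold higher in MB157R iEV than in MB157 iEV (log2 4.16, SE 0.07, adjusted p = 1.01e-14, edgeR). SOX2 induction lowered it 7.11-fold in the 12-library fit (log2 -2.82, SE 0.14, adjusted p = 2.62e-11, edgeR), on 51 counts in MB157 iSOX2 and 323 counts in MB157 iEV over 3 libraries each. This was the opposite direction to the line difference. SOX2 itself averaged 62.2 CPM in MB157R iEV, 6.97 CPM in MB157 iEV and 302 CPM in MB157 iSOX2. Its part in the line difference of SNAI2 was not tested. N1-ICD gave a log2 difference of 0.06 (95% interval -0.05 to 0.17, adjusted p = 0.306, edgeR).

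TWIST1 and TWIST2 are closely related basic helix-loop-helix factors that bind E-boxes. TWIST2 was detected in MB157 only, whereas TWIST1 was present in all 4 groups and higher in MB157R. TWIST1 (chromosome 7, 19020991 to 19117636, minus strand) stood at 24.4, 24.6 and 24.1 CPM in MB157R iN1-ICD and at 20.9, 22.6 and 22.0 CPM in MB157R iEV. It stood at 7.53, 10.3 and 9.62 CPM in MB157 iSOX2 and at 6.67, 7.46 and 7.33 CPM in MB157 iEV. The groups did not overlap, but replicate 1 of MB157 iSOX2 lay just above the highest MB157 iEV library. TWIST1 was 3.05-fold higher in MB157R iEV than in MB157 iEV (log2 1.53, SE 0.07, adjusted p = 1.98e-10, edgeR). SOX2 raised it 1.28-fold (log2 0.36, SE 0.11, adjusted p = 8.07e-03, edgeR). N1-ICD raised it 1.12-fold (log2 0.20, SE 0.06, adjusted p = 9.75e-03, edgeR), a call that was lost in the 12-library fit (log2 0.17, adjusted p = 9.51e-02, edgeR).

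TWIST2 (chromosome 2, 238848032 to 238910534) had 0 counts in all 6 MB157R libraries. It had 252, 292 and 277 counts (6.03, 6.40 and 6.14 CPM) in MB157 iSOX2 and 471, 580 and 567 counts (14.1, 13.6 and 13.7 CPM) in MB157 iEV. Against a floor of 3 counts over the 3 libraries of a group, it was at least 589-fold lower in MB157R iEV than in MB157 iEV, and N1-ICD did not bring it to a detectable level in MB157R. In MB157, SOX2 lowered it 2.23-fold (log2 -1.15, SE 0.08, adjusted p = 1.22e-09, edgeR), so that the TWIST paralogs moved in opposite directions under SOX2. The floor covers counting error only.

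ZEB1 and ZEB2 are zinc finger homeobox repressors that stand in a double-negative loop with the miR-200 family and miR-205. ZEB2 (chromosome 2, 144364364 to 144521057, minus strand, 10 exons) stood at 14.5, 14.3 and 13.6 CPM in MB157R iN1-ICD and at 8.48, 8.03 and 7.79 CPM in MB157R iEV. In MB157 iSOX2 and MB157 iEV it had 1 count each over 3 libraries. Only the MB157R libraries held more than 1 count, and N1-ICD raised it there 1.75-fold without overlap (log2 0.84, SE 0.08, adjusted p = 4.98e-06, edgeR). Between MB157R iEV and MB157 iEV the ratio of counts per library size was 951, with a 95% counting interval from 170 to 37602. ZEB1 (chromosome 10, 31318495 to 31529814) was low in all groups, at 0.602, 0.807 and 1.30 CPM in MB157R iN1-ICD, 0.944, 0.904 and 0.541 CPM in MB157R iEV, 0.167, 0.0877 and 0.111 CPM in MB157 iSOX2 and 0.210, 0.117 and 0.169 CPM in MB157 iEV. The MB157R libraries were all above the MB157 libraries, and the groups within each line overlapped. The authors' filter kept ZEB1 in no comparison. In the 12-library fit it was higher in MB157R iEV than in MB157 iEV (log2 2.26, SE 0.42, adjusted p = 9.30e-05, edgeR), on 101 and 19 counts. SOX2 gave a log2 difference of -0.42 (95% interval -1.57 to 0.74) and N1-ICD one of 0.19 (95% interval -0.51 to 0.90), neither past the test. ZEB1-AS1, the antisense neighbour that the strand setting of the counting separates from ZEB1, stood at 1.64, 1.36, 1.34 and 1.62 CPM on average in MB157R iN1-ICD, MB157R iEV, MB157 iSOX2 and MB157 iEV.

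MIR205HG, the host transcript of miR-205, was the only gene of the microRNA host and antisense list in the tested genes, with 1 of 1 called in each comparison. Among all genes tested, 90.2% passed between the lines, 66.4% with SOX2 and 59.1% with N1-ICD, so this call alone does not set it apart. It is shown because the mature miR-205 represses ZEB1 and ZEB2, with its seed (bases 2 to 8) in capitals, from RefSeq (GRCh38.p14, chr1:209432166-209432187, plus strand).
hsa-miR-205-5p: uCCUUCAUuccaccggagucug
The host transcript averaged 110 ± 13.4 CPM in MB157R iEV, where ZEB2 was present, and 17.1 ± 1.69 CPM in MB157 iEV (SD, n = 3), a log2 fold change of 2.61 (SE 0.09, edgeR). It averaged 29.1 ± 2.53 CPM in MB157 iSOX2, above MB157 iEV, and 65.6 ± 10.7 CPM in MB157R iN1-ICD, below MB157R iEV (log2 -0.71, SE 0.11, edgeR). The libraries held polyadenylated RNA, so the mature microRNA was not measured.

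PRRX1, a paired-related homeobox factor that drives EMT in several carcinomas, was the driver that SOX2 raised most. PRRX1 (chromosome 1, 170662728 to 170739421, 4 exons) had 4, 2 and 4 counts in MB157R iN1-ICD and 5, 2 and 6 counts in MB157R iEV. It had 128, 138 and 148 counts (3.06, 3.03 and 3.28 CPM) in MB157 iSOX2 and 37, 28 and 44 counts (1.11, 0.655 and 1.06 CPM) in MB157 iEV. The MB157 groups did not overlap with each other or with MB157R, and the MB157R groups overlapped. SOX2 raised it 3.31-fold in the 12-library fit (log2 1.74, SE 0.23, adjusted p = 9.24e-06, edgeR), and it was 9.48-fold lower in MB157R iEV than in MB157 iEV (log2 -3.18, SE 0.35, adjusted p = 2.17e-07, edgeR). N1-ICD gave a log2 difference of -0.34 (95% interval -1.48 to 0.80, adjusted p = 0.654, edgeR). The authors' filter kept PRRX1 in no comparison.

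With SOX2, 6 of the 10 members were tested in the authors' filtered genes, of which 1 was higher, 3 were lower, while 2 did not pass, where 66.4% of all 10904 genes tested passed (32.5% higher and 33.9% lower), and 69.8% had libraries that did not overlap. In the 12-library fit, 2 were higher, 4 were lower, while 3 did not pass, where 50.5% of genes passed, and ZEB2 had too few counts to test. With N1-ICD, 7 were tested, of which 4 were higher, 2 were lower, while 1 did not pass, where 59.1% of 11210 genes passed (29.8% higher and 29.3% lower), and 65.4% had libraries that did not overlap. In the 12-library fit, 3 were higher, 2 were lower, while 4 did not pass, where 53.0% of genes passed, and TWIST2 had no counts to test. Among the members tested in the 6-library fits, changes of at least 2-fold were made by SNAI1, TWIST2 and OVOL1 with SOX2 and by SNAI1 with N1-ICD, and SNAI2 and PRRX1, tested with SOX2 only in the 12-library fit, also passed that size. In the 6-library fits, 6.05% of all genes tested passed that size with SOX2 and 5.17% with N1-ICD.

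**Figure D2:**
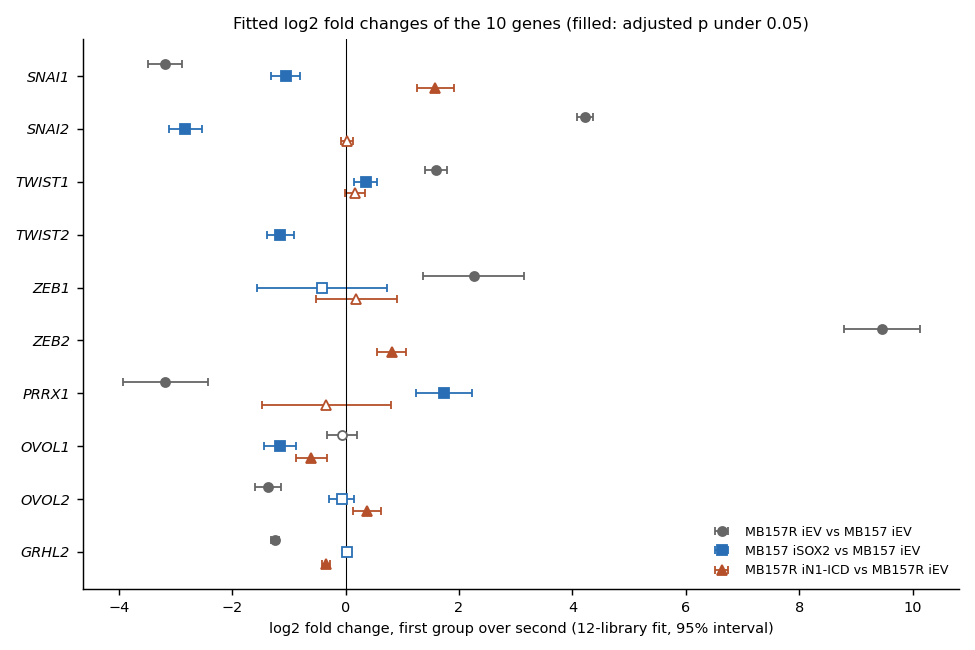
Fitted log2 fold changes of the 10 genes with 95% intervals from the 12-library fit, first group over second, in 3 comparisons; filled symbols passed at an adjusted p under 0.05. SNAI1 and SNAI2 lie on opposite sides of 0 between the lines (-3.19 and 4.23), and TWIST2 against MB157R (0 counts) and ZEB2 under SOX2 (1 count in each group) are not drawn.

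The epithelial opponents were present in every group. GRHL2, which activates CDH1 and other junction genes and represses ZEB1, lies on chromosome 8 (101492439 to 101669726). It stood at 60.9, 58.4 and 58.2 CPM in MB157R iN1-ICD and at 74.8, 76.4 and 74.5 CPM in MB157R iEV. It stood at 183, 178 and 180 CPM in MB157 iSOX2 and at 175, 178 and 181 CPM in MB157 iEV. The MB157 groups overlapped, the MB157R libraries were all lower, and the lowest 3 were those with N1-ICD. GRHL2 was 2.37-fold lower in MB157R iEV than in MB157 iEV (log2 -1.31, SE 0.03, adjusted p = 4.53e-13, edgeR). N1-ICD lowered it a further 1.27-fold (log2 -0.31, SE 0.04, adjusted p = 8.04e-05, edgeR), and SOX2 gave a log2 difference of 0.02 (95% interval -0.04 to 0.08, adjusted p = 0.466, edgeR).

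OVOL2, a zinc finger repressor of ZEB1 and other EMT genes, lies on chromosome 20 (17956979 to 18059188, minus strand), where its span overlaps SNX5 on the same strand, so some reads could be split between them. It stood at 7.26, 5.93 and 8.11 CPM in MB157R iN1-ICD and at 5.57, 5.98 and 4.96 CPM in MB157R iEV. It stood at 13.3, 13.9 and 13.1 CPM in MB157 iSOX2 and at 12.7, 15.4 and 14.2 CPM in MB157 iEV. Both pairs within a line overlapped, and all MB157R libraries lay below all MB157 libraries. OVOL2 was 2.56-fold lower in MB157R iEV than in MB157 iEV (log2 -1.43, SE 0.10, adjusted p = 1.40e-08, edgeR). SOX2 gave a log2 difference of -0.07 (95% interval -0.22 to 0.09, adjusted p = 0.446, edgeR). N1-ICD raised it 1.29-fold (log2 0.41, SE 0.13, adjusted p = 2.07e-02, edgeR), a call lost without replicate 1 (log2 0.40, adjusted p = 0.0539) or 3 (log2 0.30, adjusted p = 0.0948) of MB157R iN1-ICD and without replicate 1 (log2 0.42, adjusted p = 0.0505) or 3 (log2 0.33, adjusted p = 0.0669) of MB157R iEV.

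OVOL1, a related zinc finger repressor of epidermal and mammary epithelium, did not separate the lines but fell under both transgenes. OVOL1 (chromosome 11, 65787063 to 65797214) stood at 5.64, 6.78 and 5.25 CPM in MB157R iN1-ICD and at 9.14, 8.13 and 9.61 CPM in MB157R iEV. It stood at 3.83, 5.00 and 3.66 CPM in MB157 iSOX2 and at 8.14, 9.73 and 10.1 CPM in MB157 iEV. The libraries with empty vector overlapped between the lines and lay above all libraries with a transgene. SOX2 lowered it 2.24-fold (log2 -1.16, SE 0.12, adjusted p = 5.06e-07, edgeR) and N1-ICD lowered it 1.52-fold (log2 -0.57, SE 0.12, adjusted p = 1.67e-03, edgeR). Between MB157R iEV and MB157 iEV the log2 difference was -0.13 (95% interval -0.35 to 0.09, adjusted p = 0.234, edgeR).

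To compare the members with each other, CPM was divided by the length of each gene's canonical transcript in kilobases. On this scale SNAI2 and TWIST1 were the main drivers in MB157R iEV, at 23.7 and 13.4 CPM per kb, against 0.916 for SNAI1, 0.874 for ZEB2 and 0.134 for ZEB1. In MB157 iEV the leading drivers per length were TWIST2 at 10.3 and SNAI1 at 8.25 CPM per kb, followed by TWIST1 at 4.39 and SNAI2 at 1.26 CPM per kb. Each line thus had 1 leading SNAI and 1 leading TWIST gene, and they were not the same paralogs. With N1-ICD in MB157R the 4 leading drivers kept the same order per length as in MB157R iEV, with SNAI2 at 24.1, TWIST1 at 15.0, SNAI1 at 2.72 and ZEB2 at 1.53 CPM per kb. With SOX2 in MB157, TWIST1 at 5.62 CPM per kb stood above TWIST2 at 4.61 and SNAI1 at 3.95 CPM per kb. Among the opponents, GRHL2 had the highest level per length in each group, at 11.3, 14.4, 34.5 and 34.0 CPM per kb in MB157R iN1-ICD, MB157R iEV, MB157 iSOX2 and MB157 iEV. These differences between genes were not tested, and which transcript of each gene was expressed is unknown.

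**Figure D3:**
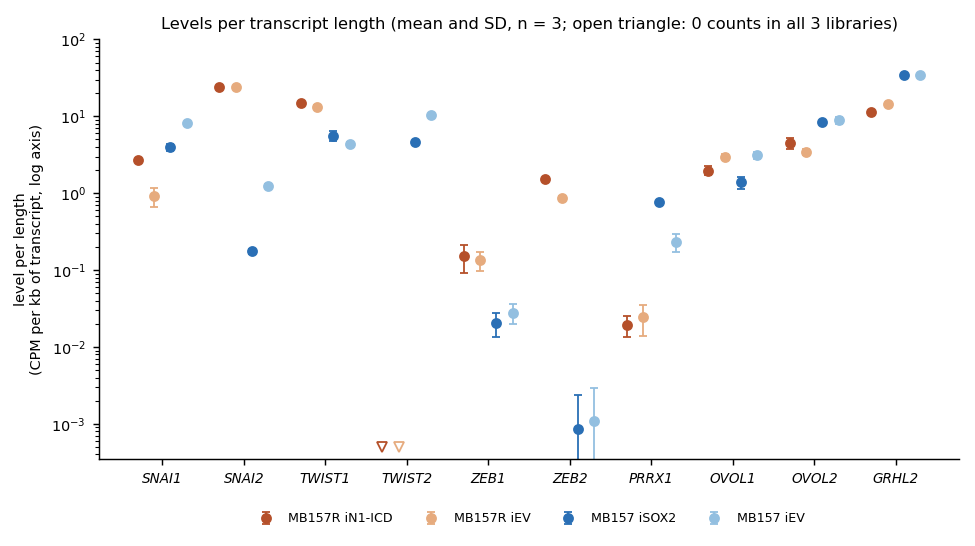
Levels of the 10 genes per transcript length (CPM per kb, log axis) as mean and SD of 3 libraries in each group; open triangles mark 0 counts in all 3 libraries, and the lower bars of ZEB2 in MB157 run off the axis. SNAI2 leads the drivers in both MB157R groups (24.1 and 23.7 CPM per kb) and TWIST2 in MB157 iEV (10.3 CPM per kb).

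The inductions share no library, so the effect of SOX2 in MB157 was set against that of N1-ICD in MB157R in 1 test, which cannot tell the transgene apart from the line it was expressed in. Of the 8 members with enough counts, 6 differed, where 49.7% of 17102 genes did. SNAI1 had a SOX2 effect of -1.06 and an N1-ICD effect of 1.59 on the log2 scale, a difference of -2.64 (SE 0.19, adjusted p = 6.71e-09, edgeR), and was the only member that passed the test in opposite directions. SNAI2 differed by -2.85 (SE 0.15, adjusted p = 6.72e-11, edgeR) and PRRX1 by 2.08 (SE 0.60, adjusted p = 8.24e-03, edgeR), since SOX2 changed both and N1-ICD changed neither past the test. GRHL2 differed by 0.36 (SE 0.05, adjusted p = 7.09e-06, edgeR). OVOL1 differed by -0.56 (SE 0.19, adjusted p = 0.0193, edgeR), which was lost without replicate 2 of MB157R iN1-ICD (-0.45), replicate 3 of MB157 iSOX2 (-0.47) or replicate 3 of MB157 iEV (-0.50). OVOL2 differed by -0.45 (SE 0.15, adjusted p = 0.0225, edgeR), which was lost without replicate 3 of MB157R iN1-ICD (-0.34), replicate 3 of MB157R iEV (-0.38) or replicate 2 of MB157 iEV (-0.38). TWIST1 differed by 0.19 (95% interval -0.08 to 0.45, adjusted p = 0.234, edgeR), which passed without replicate 1 of MB157 iSOX2 (0.31, adjusted p = 0.0155). ZEB1 differed by -0.61 (95% interval -1.96 to 0.75).

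The members' known targets were read from lists of named genes, whose counts stand against 45.0% higher and 45.3% lower among all genes tested between the lines, 32.5% and 33.9% with SOX2, and 29.8% and 29.3% with N1-ICD. Of 23 tested epithelial genes repressed by SNAI and ZEB factors, 5 were higher, 16 were lower, while 2 did not pass in MB157R iEV against MB157 iEV, with a median log2 fold change of -0.48, where the median of all genes tested was -0.0043. CLDN3, a tight junction claudin, had 0 counts in MB157R iEV and 118 CPM in MB157 iEV, at least 5059-fold lower. CLDN3 passed the authors' filter only through its MB157 counts, so the direction of its change followed from the filter. CDH1, the E-cadherin gene and the classic target of the drivers, was singled out after its values were seen, and averaged 316 CPM in MB157R iEV and 565 CPM in MB157 iEV (log2 -0.91, SE 0.03, edgeR). E-cadherin mRNA was thus lower but abundant in MB157R iEV, where SNAI2, TWIST1, ZEB1 and ZEB2 were higher and SNAI1, TWIST2 and PRRX1 lower. With N1-ICD, 13 of 21 tested genes of this list were higher, 6 were lower, while 2 did not pass (median 0.23), CDH1 among the higher ones at 387 CPM (log2 0.34, SE 0.05, edgeR) and MUC1 with the largest rise (log2 1.43, SE 0.23, edgeR). With SOX2, 6 of 21 were higher, 9 were lower, while 6 did not pass (median -0.02). Of the 15 genes driven by GRHL2 and OVOL, 4 of which are also in the list above, 6 were higher and 7 lower in MB157R iEV (median log2 fold change -0.01), 4 higher and 8 lower with SOX2 (median -0.09) and 7 higher and 5 lower with N1-ICD (median 0.05), where 90.2%, 66.4% and 59.1% of all genes tested passed in one direction or the other. S100A14, an S100 calcium-binding protein, had the largest change of the list in all 3 comparisons, at 6.79 CPM in MB157R iN1-ICD, 2.44 CPM in MB157R iEV, 117 CPM in MB157 iSOX2 and 282 CPM in MB157 iEV.

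Of 21 mesenchymal readouts, 14 were tested in MB157R iEV against MB157 iEV, of which 11 were higher, 2 were lower, while 1 did not pass (median log2 fold change 4.11). Only 7 of the 21 were tested within MB157. Readouts such as COL1A2 and ACTA2 passed the authors' filter through their MB157R counts, so their rise followed from the filter. The count and the median carry this limit. MMP2, a gelatinase, had the largest rise (389 and 0.123 CPM), and S100A4, a calcium-binding protein of motile cells, the largest fall (0.681 and 191 CPM). MMP2 passed the filter only through its MB157R counts and S100A4 mainly through its MB157 counts, so their directions carry the same limit. VIM, the mesenchymal intermediate filament gene and also singled out after its values were seen, did not pass (660 CPM in MB157R iEV and 629 CPM in MB157 iEV, log2 -0.0010 with SE 0.03). With SOX2, 4 of 7 tested readouts were higher and 3 were lower, led by CDH2, the N-cadherin gene, at 28.0 and 1.42 CPM, and by SPARC, a matrix protein, at 64.9 and 335 CPM. CDH2 entered this test mainly through its MB157 iSOX2 counts. With N1-ICD, 6 of 15 were higher, 5 were lower, while 4 did not pass, with the largest rise in FN1, the fibronectin gene, at 6316 CPM in MB157R iN1-ICD and 1674 CPM in MB157R iEV, and the largest fall in MMP2 at 135 and 389 CPM. The 8 fibroblast markers, 6 of which are in the readout list, summed to between 162 and 170 CPM in MB157R iN1-ICD, 79.8 and 92.4 in MB157R iEV, 68.0 and 74.1 in MB157 iSOX2 and 41.88 and 48.99 in MB157 iEV, with COL1A1 the largest in MB157R, and DCN at 0 counts in all MB157R libraries. The 5 endothelial markers summed to between 45.3 and 50.7 CPM in MB157R iN1-ICD against 4.41 and 4.84 CPM in MB157R iEV, and to between 101 and 110 CPM in MB157 iSOX2 against 7.33 and 8.18 CPM in MB157 iEV, mostly from PECAM1 in MB157 iSOX2. The part of other cell types in these values was not tested.

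**Figure D4:**
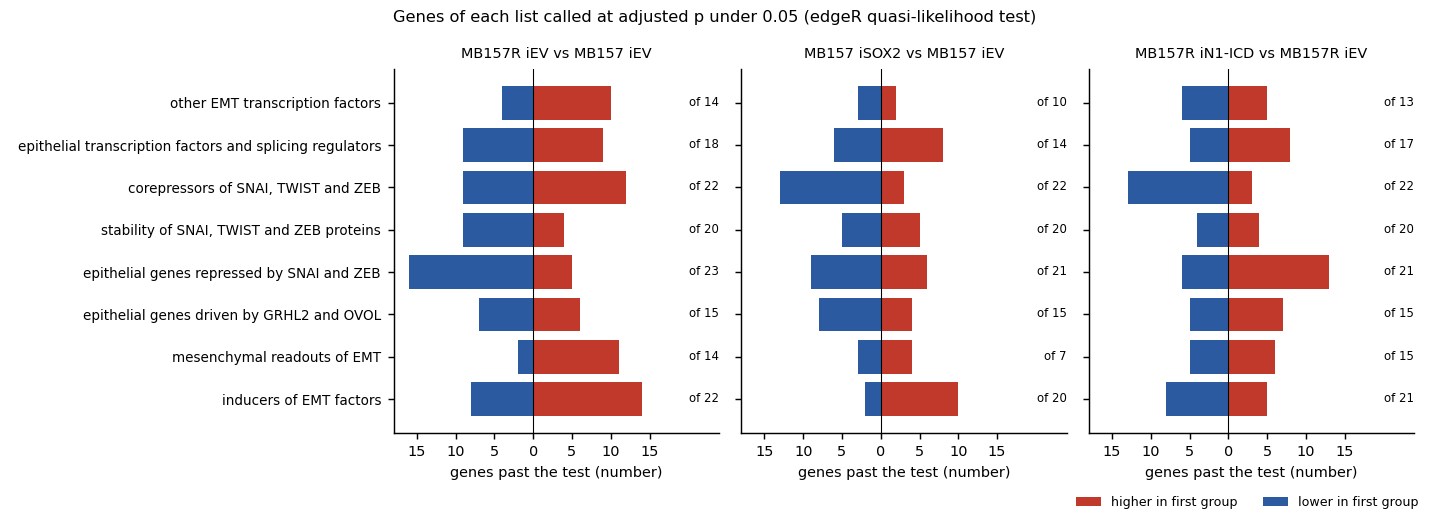
Number of genes of each list that were higher (right) or lower (left) in the first group at an adjusted p under 0.05, in 3 comparisons, with the number tested at the right edge. Of the 23 tested epithelial genes repressed by SNAI and ZEB, 16 were lower in MB157R iEV, and of the 14 tested mesenchymal readouts, 11 were higher. Among all genes tested between the lines, 45.0% were higher and 45.3% lower. Some genes of these lists, such as COL1A2 and CLDN3, passed the authors' filter only through the line where they were high.

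Other factors of EMT and of the epithelial state moved in both directions. Of 14 other EMT transcription factors tested in MB157R iEV against MB157 iEV, 10 were higher and 4 were lower (median log2 fold change 1.62), where 90.2% of all genes passed (45.0% higher and 45.3% lower), with TCF4, an E-protein partner of TWIST, at 21.1 and 0.0158 CPM, and KLF8, a Krüppel-like repressor of CDH1, at 0.0379 and 21.9 CPM. TCF4 passed the authors' filter only through its MB157R counts and KLF8 only through its MB157 counts, so the direction of each followed from the filter. With SOX2, 2 of 10 were higher, led by HMGA2 (7.36 and 2.20 CPM), 3 were lower, led by FOXC1 (62.1 and 138 CPM), and 5 did not pass. With N1-ICD, 5 of 13 were higher, led by SOX9 (493 and 186 CPM), 6 were lower, led by FOSL1 (222 and 417 CPM), and 2 did not pass. Of 18 other epithelial transcription factors and splicing regulators tested between the lines, 9 were higher and 9 lower in MB157R iEV, led by TP63, the basal p53 family member, at 243 and 0.0539 CPM and by ELF5, a luminal progenitor factor, at 0.0151 and 104 CPM. The same limit holds here, since TP63 passed the filter only through its MB157R counts and ELF5 only through its MB157 counts. With N1-ICD, 8 of 17 were higher and 5 were lower, led by GRHL3, a grainyhead-like relative of GRHL2, at 18.6 and 2.88 CPM. With SOX2, 8 of 14 were higher and 6 were lower, led by KLF5 (72.3 and 17.4 CPM) and SPDEF (1.26 and 2.80 CPM). Among all genes tested, 32.5% were higher and 33.9% lower with SOX2, and 29.8% higher and 29.3% lower with N1-ICD.

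Corepressors that the drivers recruit were tested in full, 22 of 22. Between the lines 12 were higher, 9 were lower, while 1 did not pass (median log2 fold change 0.37). Among all genes tested between the lines 90.2% passed (45.0% higher and 45.3% lower), which also stands against the lists that follow. With SOX2, 3 were higher, with the largest rise in CTBP2, at 235 CPM in MB157 iSOX2 and 149 CPM in MB157 iEV. The 13 that were lower included LOXL2, a lysyl oxidase that binds SNAI1, at 21.8 CPM in MB157 iSOX2 and 65.5 CPM in MB157 iEV. With N1-ICD, 3 were higher, with the largest rise in WTIP, at 21.6 CPM in MB157R iN1-ICD and 16.3 CPM in MB157R iEV. The 13 that were lower included HDAC1, a histone deacetylase, at 119 CPM in MB157R iN1-ICD and 194 CPM in MB157R iEV. Their medians were -0.15 with SOX2 and -0.19 with N1-ICD, and among all genes tested 32.5% were higher and 33.9% lower with SOX2, and 29.8% higher and 29.3% lower with N1-ICD. Of 20 genes for the stability of the driver proteins, 4 were higher, 9 were lower, while 7 did not pass between the lines, 5, 5 and 10 with SOX2 and 4, 4 and 12 with N1-ICD. PRKD1, a kinase that phosphorylates SNAI1, had the largest rise of them both between the lines and with SOX2, at 16.5 CPM in MB157R iEV, 7.75 CPM in MB157 iSOX2 and 0.802 CPM in MB157 iEV. With 95 counts in MB157 iEV, PRKD1 entered these tests mainly through the group where it was higher. The list of EMT inducers also holds genes of opposite action, such as BMP7 and ID3, so its counts are not counts of inducing signals alone. Of its genes, 14 of 22 were higher and 8 were lower between the lines (median 0.74). They were led by WNT5A, a Wnt ligand, at 113 and 0.0834 CPM, and by BMP7, a ligand that opposes EMT, at 0 counts and 79.4 CPM. WNT5A passed the authors' filter only through its MB157R counts and BMP7 only through its MB157 counts. The direction of each thus followed from the filter, and the count and median of this list carry this limit. With SOX2, 10 of 20 were higher, led by the TGF-β receptor TGFBR2 (18.1 and 4.15 CPM), and 2 were lower. With N1-ICD, 5 of 21 were higher, led by the inhibitor of helix-loop-helix factors ID3 (51.5 and 16.4 CPM), and 8 were lower.

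The genes most like each member were found among 11904 genes by the root mean square difference in centred log2(CPM + 0.5) over the 12 libraries. The nearest to SNAI1 was C2orf72 (difference 0.09), with group means of 3.59, 1.16, 5.53 and 11.1 CPM in MB157R iN1-ICD, MB157R iEV, MB157 iSOX2 and MB157 iEV. The nearest to ZEB2 was STRA6 (0.05), at 14.7, 8.30, 0 and 0 CPM in the same groups. TWIST2 was nearest to SLC5A5 (0.18), SNAI2 to B3GNT3 (0.31), TWIST1 to GLIPR2 (0.10), PRRX1 to ZBED1 (0.19), OVOL1 to CRISPLD2 (0.17), OVOL2 to ZNF490 (0.11) and GRHL2 to SLC35A4 (0.05). The likeness is one of pattern over 4 groups, and it carries no test.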

How the data were processed

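RNA-seq of 12 libraries (stranded polyadenylated RNA) was used, in 4 groups of 3. The authors ran STAR and Salmon on hg38 with the reverse strand setting and deposited estimated counts (expected counts per gene, not normalized), which were rounded to whole numbers here. The annotation is not given in the sources used here. The authors also deposited 3 filtered tables of log2 TMM-scaled CPM (edgeR 3.42.4, limma 3.56.2), which set the 11435, 10904 and 11210 genes tested here.

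Library sizes came from all 29744 entries, of which 61 repeat a gene name. Each comparison of 6 libraries, and 1 fit over 12 libraries on 17102 genes, used edgeR 4.0.16 (glmQLFit and glmQLFTest, TMM, R 4.3.3) with Benjamini-Hochberg adjustment and a threshold of 0.05. The test was checked on simulated data. A member with at most 3 counts in both groups was not tested, and intervals of counts cover counting error only. Gene positions and transcript lengths are from GENCODE on hg38, and promoter and microRNA sequences from RefSeq (GRCh38.p14).

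The members and the gene lists were chosen with earlier results of these data known. The named genes were the members, the induced genes, and in each list and comparison the largest rise and fall among called genes averaging 1 CPM or more, of which a part is printed, with CDH1, VIM and others singled out in the text in addition. Candidates for nearest genes averaged 5 CPM or more, and 0.5 was added before the log. Alternatives were RLE factors, library totals alone, other filters, limma 3.58.1 (voom), DESeq2 1.42.0, 1 fit over 12 libraries, a replicate block and leaving out each library.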

Additional observations from a re-analysis of the deposited data

How the results depend on the processing

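The 3 comparisons called 10318 genes between the lines, 7237 with SOX2 and 6621 with N1-ICD, and under all alternatives run the counts stayed within 10115 to 15401, 6670 to 9375 and 5810 to 8670, the highest with more genes tested. Library totals alone turned the split with SOX2 to 4396 higher and 2859 lower, against 3539 and 3698 with TMM, and gave GRHL2 a log2 difference of 0.08 there (adjusted p = 0.0171, edgeR), past the threshold. Of 280 values for single members in the 6-library fits under an alternative, 273 kept their direction and side of the threshold, 5 lost the call (4 of OVOL2 and 1 of TWIST1, with N1-ICD) and 1 gained it. In the 12-library fit 1042 of 1056 did, with 7 calls lost and 3 gained, all of TWIST1, OVOL1 or OVOL2. The direction turned in 5 values in all, none of them called and each with 1 library left out, and over the left-out libraries the log2 difference ran from -0.127 to 0.00302 for OVOL2 with SOX2 (-0.135 to 0.000409 in the 12-library fit) and, in the 12-library fit with N1-ICD, from -0.0121 to 0.0597 for SNAI2 and from -0.17 to 0.42 for ZEB1. The libraries were replicate 2 of MB157 iEV for OVOL2, replicate 1 of MB157R iEV for SNAI2, and replicate 3 of MB157R iN1-ICD or of MB157R iEV for ZEB1. The labels do not say whether replicate numbers pair the samples. Deviations of same-numbered libraries correlated between -0.16 and 0.10, and those of differently numbered ones reached 0.17, so these values do not settle it. With a replicate block 10247, 7019 and 6422 genes and 6, 4 and 6 members were called, and no member's call changed. Depth limits ZEB1 and PRRX1 in the groups with 10 to 19 counts over 3 libraries, and TWIST2 and ZEB2 where they had 0 or 1.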
